A study of Homo sapiens with 52 samples.

Results

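The complement genes C1R, C1S, C3, CFB, CFI, SERPING1, CD46, CD55 and CD59 were followed through the onset of cellular senescence in WI-38 cells, a line of normal human lung fibroblasts. These 9 genes were taken by symbol out of the 59408 genes that every deposited table lists. In the study, senescence followed 24 h of 0.0090% sodium dodecyl sulfate, a detergent that injures the plasma membrane (PMD-Sen), 24 h in 75 mM KCl, a treatment used to raise intracellular calcium (Ca2+-Sen), or 24 h of 250 nM doxorubicin, a DNA-damaging drug (DXR, giving DDR-Sen). Each agent was then washed off, and cells were collected at 8 times, on that day (day 0), daily up to day 4, and on days 6, 8 and then 16. Cells passaged to exhaustion at a population doubling level around 52 were replicatively senescent (RS), and untreated young cells at a level of 32 to 46 were the control of every comparison. Each of these 26 groups had 2 mRNA-seq libraries. WI-38 is 1 established line, so the groups describe that line alone.

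Complement is a cascade of plasma proteins that marks targets for removal and can open pores in membranes. C1R and C1S are the serine proteases of the C1 complex, which starts the classical pathway, and C3 is the central component on which all pathways meet. CFB supplies the protease of the alternative pathway's C3 convertase, and CFI is the protease that inactivates C3b and C4b. SERPING1 encodes the C1 inhibitor, a secreted serpin that removes C1R and C1S from their complex. CD46, CD55 and CD59 protect host cells at the surface: CD46 is the cofactor with which CFI cleaves C3b, CD55 speeds the decay of convertases, and CD59 blocks the pore. The liver makes most plasma complement, while fibroblasts and macrophages also secrete components locally.

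The tables give group means and no values of single libraries, so each level below is a mean of 2 libraries and its error is the standard error of the authors' log2 fold change over the untreated cells. Levels are normalized counts on 1 scale. By estimate from the lowest values, the untreated libraries held 15400000 and 18800000 counted reads and the treated ones 19100000 to 58000000. A gene was tested where its mean level over the 26 groups was at least 10, which 15479 genes and 7 of the 9 members reached, and it is named as called, higher or lower where its Benjamini-Hochberg adjusted p over all tested genes of that table was under 0.05. All 25 comparisons share the same 2 untreated libraries, so a chance deviation of those libraries enters each of them.

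CFB was listed at 0 in all 25 tables, and CFI stayed at or under 1.73 normalized counts in every group. Neither was tested. In CFB's region of chromosome 6, genes that every cell uses were also listed near 0: GTF2H4 at 0, BAG6 at no more than 6.52 and CSNK2B at no more than 5.37. The 0 of CFB is therefore given only as listed. CFI shares 1562 of its 4875 exonic bases with another gene model on its strand in GENCODE 29, AC126283.2, and CFB shares 2272 of its 4997 with AL645922.1 and C2.

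The cells carried the fibroblast markers throughout, with 9 of 9 above the filter and a summed level between 305778 and 787870 over the groups. Among other cells that make complement, the liver markers ALB, APOA1 and TTR summed to no more than 6.12. Of 8 white blood cell markers, CD14 and CSF1R passed the filter, and their list's sum ran from 25.5 to 271, highest in RS, against 39.8 in untreated cells. Below the filter, PTPRC was at 0.242 in untreated cells and at 24.8 at most, and ITGAM at 0.196 and 14.95. LYZ was at 1.54 in untreated cells and 6.06 at most, and HBB at 1.83 and 4.31. The lymphocyte markers CD3E and MS4A1 reached 0 in at least 1 group and 3.37 and 0.842 at most. The endothelial list summed to between 32.4 and 220, with PECAM1 at 2.75 in untreated cells and 136 at most. The epithelial list summed to between 2.70 and 27.3. The part of these cells in the results was not tested, and in RNA of whole cultures a change in the number of cells of a type and in RNA per cell cannot be told apart.

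Per kilobase of exonic sequence, the members differed widely in the untreated cells. CD59 had 1662 normalized counts per kilobase, C1S had 1322 and CD46 had 687. CD55 followed with 130 and SERPING1 with 85.5, while C1R had 12.5 and C3 had 9.87. The effector genes C1R and C3 were thus the scarcest of the 7 and carried the largest standard errors of their fold changes, up to 1.61 and 1.07.

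**Figure D1:**
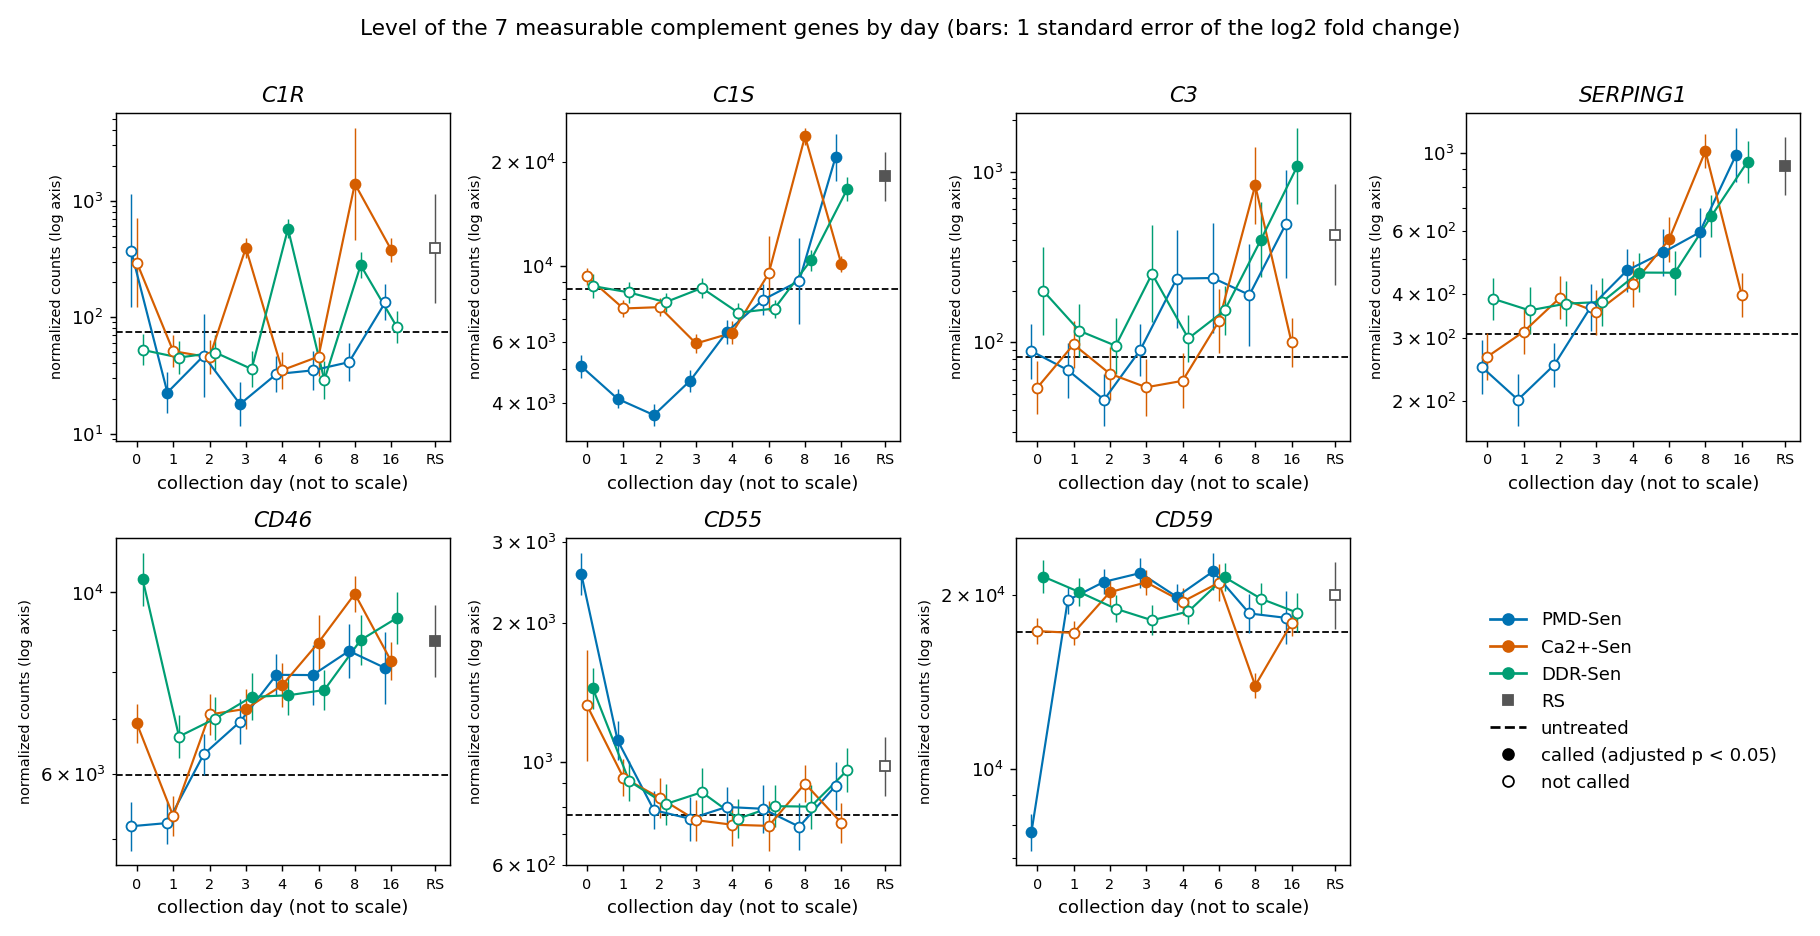
Level of each measurable complement gene (normalized counts, logarithmic axis) by collection day, which is not drawn to scale, for PMD-Sen (blue), Ca2+-Sen (orange) and DDR-Sen (green), with RS (square) and the untreated level (dashed line). Points are means of 2 libraries, bars span 1 standard error of the log2 fold change, and filled points were called; C1S and SERPING1 are called higher on day 16 of PMD-Sen and DDR-Sen and in RS, C1S by less on day 16 of Ca2+-Sen, and CD55 stands highest on day 0.

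C1S had the clearest time course of the cascade genes. Its untreated level was 8546. In PMD-Sen it fell to 5105 on day 0, 4105 on day 1 and 3681 on day 2, and then climbed through 4637, 6411, 7969 and 9042 on days 3, 4, 6 and 8 to 20715 on day 16. The log2 fold change was -1.21 (SE 0.10) on day 2, with an adjusted p of 1.09e-28, and 1.28 (SE 0.23) on day 16, with an adjusted p of 5.31e-07. It was called lower on days 0, 1, 2, 3 and 4 and higher on day 16, while days 6 and 8 were not called, the latter with an SE of 0.42. The gene thus went from 0.43 to 2.42 times its untreated level within 1 time course.

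In DDR-Sen the same gene showed no such trough. C1S lay between 7311 and 8737 from day 0 to day 6, with no call, and then reached 10382 on day 8 and 16717 on day 16. The log2 fold change on day 16 was 0.97 (SE 0.11, adjusted p = 1.15e-15). In Ca2+-Sen it was called lower on day 3 at 5947 and on day 4 at 6391, stood at 23823 on day 8 and at 10123 on day 16, where it was still called higher (log2 fold change 0.24, SE 0.08, adjusted p = 0.0240). RS had 18234, a log2 fold change of 1.09 (SE 0.24, adjusted p = 6.88e-05).

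C1R lies beside C1S on chromosome 12. In GENCODE 29 on GRCh38, C1R is at 7080199 to 7092607, minus strand, and C1S at 6988259 to 7071032, plus strand. C1R followed the course of C1S only in part. Its untreated level was 73.8, and in PMD-Sen it moved from 372 on day 0 to 22.5 on day 1 and 17.9 on day 3. In Ca2+-Sen it was 35.0 on day 4, 45.8 on day 6, 1394 on day 8 and 379 on day 16. DDR-Sen had 35.8 on day 3, then 574 a day later, and 28.8 by day 6. Neighbouring days thus differed by more than 10-fold in both directions.

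Some of these values were also poorly determined. The standard error of the log2 fold change was 1.61 on day 0 of PMD-Sen, 1.59 on day 8 of Ca2+-Sen and 1.56 in RS, but 0.26 on day 4 of DDR-Sen and 0.29 on day 3 of Ca2+-Sen. C1R was called in 7 of 25 comparisons, higher in 5 and lower in 2. Both C1R and C1S were called lower on days 1 and 3 of PMD-Sen. Both were called higher on days 8 and 16 of Ca2+-Sen and day 8 of DDR-Sen. On day 3 of Ca2+-Sen C1R was called higher and C1S lower, and on day 4 of DDR-Sen only C1R was called. In GENCODE 29, 672 of the 5885 exonic bases of C1R (11.4%) are shared with the neighbouring gene C1RL on the same strand, whose own level ran from 5.42 to 94.2. The part of this overlap in the jumps was not tested. Without C1R the members' calls over all days numbered 21 in place of 23 in PMD-Sen, 16 in place of 19 in Ca2+-Sen and 18 in place of 20 in DDR-Sen. The shares of all tested genes called are given with the members' counts further below.

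C3 was scarce in young cells and highest late. It had 82.2 normalized counts in untreated cells, and in DDR-Sen it was 201 on day 0, 117 on day 1, 95.5 on day 2, 252 on day 3, 105 on day 4, 154 on day 6, 400 on day 8 and 1077 on day 16. The log2 fold change was 2.28 (SE 0.74, adjusted p = 0.0126) on day 8 and 3.71 (SE 0.74, adjusted p = 6.87e-06) on day 16, a 13.1-fold higher level. No earlier day was called.

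In PMD-Sen, C3 lay between 46.1 and 90.5 up to day 3, between 189.5 and 238 on days 4, 6 and 8, and at 491 on day 16. None of these 8 days was called: the day 16 log2 fold change of 2.57 had an SE of 1.05 and an adjusted p of 0.0660. RS stood in the same place, with 427 normalized counts, a log2 fold change of 2.37 (SE 0.98) and an adjusted p of 0.0643. In Ca2+-Sen, C3 was called on day 8 alone, with 831 and a log2 fold change of 3.34 (SE 0.74, adjusted p = 5.55e-05), between 133 on day 6 and 100.0 on day 16. C3 was thus called in 3 of 25 comparisons, higher in each.

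SERPING1, the inhibitor of C1R and C1S, rose in the later part of every course. From 308 in untreated cells, it went in PMD-Sen through 249, 201 and 252 on days 0, 1 and 2 to 367, 465, 523 and 596 on days 3, 4, 6 and 8 and 984 on day 16. It was called from day 4 on, and the log2 fold change on day 16 was 1.67 (SE 0.26, adjusted p = 2.81e-09). The early values below the untreated level were not called.

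The course in DDR-Sen had no early dip. SERPING1 was between 359 and 387 on days 0 to 3, 459 on days 4 and 6, 661 on day 8 and 943 on day 16, called from day 4 on, with 1.61 (SE 0.20, adjusted p = 1.67e-14) at the end. In Ca2+-Sen it was called on day 6 at 569 and on day 8 at 1010, but on day 16 it was 397 with an adjusted p of 0.314. RS had 918, with 1.58 (SE 0.27, adjusted p = 2.50e-07). The 11 calls of this gene were all in the higher direction, and the late levels in PMD-Sen, DDR-Sen and RS lay between 918 and 984.

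Among the membrane regulators, CD55 and CD59 had their largest log2 fold changes on day 0 of PMD-Sen. That of CD46 was on day 0 of DDR-Sen, at 0.79 (SE 0.11), close to 0.73 (SE 0.07) on day 8 of Ca2+-Sen, and within PMD-Sen and Ca2+-Sen it was on day 8. CD55 and CD46 lie in 1 cluster of complement genes on chromosome 1 and CD59 lies on chromosome 11. The 250 bases before a RefSeq transcript start (GRCh38.p14) are shown for these 3 genes because on day 0 of PMD-Sen CD55 was called higher, CD59 lower and CD46 in neither direction. They are CD55 at chr1:207321428-207321677 on the plus strand, CD46 at chr1:207751788-207752037 on the plus strand and CD59 at chr11:33736480-33736729 on the minus strand, with motif matches in capitals.
CD55: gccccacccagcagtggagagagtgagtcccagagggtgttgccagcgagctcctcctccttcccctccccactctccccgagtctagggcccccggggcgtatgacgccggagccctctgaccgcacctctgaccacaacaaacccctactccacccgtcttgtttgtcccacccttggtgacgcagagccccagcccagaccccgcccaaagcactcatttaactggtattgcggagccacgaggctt
CD46: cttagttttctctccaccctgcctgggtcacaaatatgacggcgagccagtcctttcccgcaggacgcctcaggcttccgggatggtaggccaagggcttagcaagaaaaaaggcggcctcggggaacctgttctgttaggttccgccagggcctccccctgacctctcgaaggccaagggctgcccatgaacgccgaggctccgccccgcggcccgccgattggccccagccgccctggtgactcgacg
CD59: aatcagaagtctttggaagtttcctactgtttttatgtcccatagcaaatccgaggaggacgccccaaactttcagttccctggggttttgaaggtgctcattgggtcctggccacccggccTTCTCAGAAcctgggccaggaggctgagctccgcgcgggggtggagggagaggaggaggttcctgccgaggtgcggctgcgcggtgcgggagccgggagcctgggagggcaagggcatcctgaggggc
GENCODE 29 draws CD55 from 207321376, before the window shown, so that annotation holds a transcript that starts further upstream.

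These windows were searched on both strands for 6 motifs. The STAT motif GAS was written TTCNNNGAA, and the part of the interferon-response element ISRE was GAAANNGAA. The NF-kB part was GGGANTTTC and the C/EBP motif was TTGCNNAA. AP-1 was searched as TGANTCA. The TATA box was searched as TATAAA. GAS and the ISRE part can overlap. CD55 and CD46 held none of these letters in the windows shown, and CD59 held a GAS match, TTCTCAGAA, at positions -128 to -120 from the start. Of all 35116 windows of this length in the table, 6.57% held the GAS motif, 6.88% the ISRE part, 1.12% the NF-kB part, 9.05% C/EBP, 6.57% AP-1 and 10.7% the TATA box. CD59 has 4 windows in the table, of which 1 is shown. Another one overlaps it and holds the same GAS match, and 2 lie at starts further into the gene, 1 with 2 AP-1 matches and 1 with 2 C/EBP matches. RefSeq windows were matched for 6 members, which also included C1R, CFB and CFI. A match is a description of the letters and not of a factor bound there.

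CD55 was highest on day 0 under each inducer. From 769 in untreated cells it stood at 2557 in PMD-Sen, 1444 in DDR-Sen and 1327 in Ca2+-Sen on that day. The log2 fold change was 1.73 (SE 0.15, adjusted p = 1.16e-28) in PMD-Sen and 0.91 (SE 0.15, adjusted p = 1.34e-08) in DDR-Sen, while that of 0.79 in Ca2+-Sen had an SE of 0.40 and an adjusted p of 0.0887. On day 1 of PMD-Sen it was still higher at 1116 (log2 fold change 0.54, SE 0.14). From day 2 on, every group under every inducer lay between 726 and 960.5, none of them called, and RS had 981 with an adjusted p of 0.256. CD55 thus had 3 calls in all, on days 0 and 1.

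CD59 did the opposite in PMD-Sen on day 0. It fell from 17210 to 7763, a log2 fold change of -1.15 (SE 0.11, adjusted p = 3.28e-26), and was back at 19563 on day 1. From then on its levels in PMD-Sen ran from 18242 to 21945, with small calls in the higher direction on days 2, 3, 4 and 6. The other calls were as small: log2 fold changes of 0.23 and 0.29 on days 2 and 3 of Ca2+-Sen and 0.32, 0.23 and 0.32 on days 0, 1 and 6 of DDR-Sen, all higher. On day 8 of Ca2+-Sen it was lower, at 13925 (log2 fold change -0.31, SE 0.07). CD59 was thus abundant throughout, and outside day 0 of PMD-Sen its log2 fold changes lay between -0.31 and 0.35.

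CD46 changed by small steps with small errors, at an SE of 0.15 or less. Its untreated level was 5986, and the 25 treated groups ran from 5183 to 10373. It was called in 17 comparisons, all higher, the largest on day 0 of DDR-Sen at 0.79 (SE 0.11, adjusted p = 9.31e-12). In PMD-Sen it stood at 5183 on day 0, where it was not called, and at 7933, 7928, 8484 and 8085 on days 4, 6, 8 and 16, where it was. In Ca2+-Sen it was called on days 0, 3, 4, 6, 8 and 16 and in DDR-Sen on days 0, 3, 4, 6, 8 and 16. RS had 8730 (log2 fold change 0.54, SE 0.15, adjusted p = 0.00177). At 1.16 to 1.73 times the untreated level, these calls were smaller in size than the 3 of C3, at 4.87 to 13.1 times.

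Ordered by level over the 25 treated groups, neighbours were mostly within their errors. Ordering places the closest levels side by side, so this describes how firm the order is and not whether groups differ. C1S, for example, ran from 3681 to 23823 over these groups. Of 24 neighbouring pairs of groups, none differed beyond the 95% limit of the difference for C1R, C3 and SERPING1, 1 did for C1S, CD46 and CD55, and 2 did for CD59. The top of the order was day 8 of Ca2+-Sen, then day 16 of PMD-Sen, then RS for C1S, and day 8 of Ca2+-Sen, then day 16 of PMD-Sen and of DDR-Sen for SERPING1. For CD55 it was day 0 of PMD-Sen, DDR-Sen and Ca2+-Sen.

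**Figure D2:**
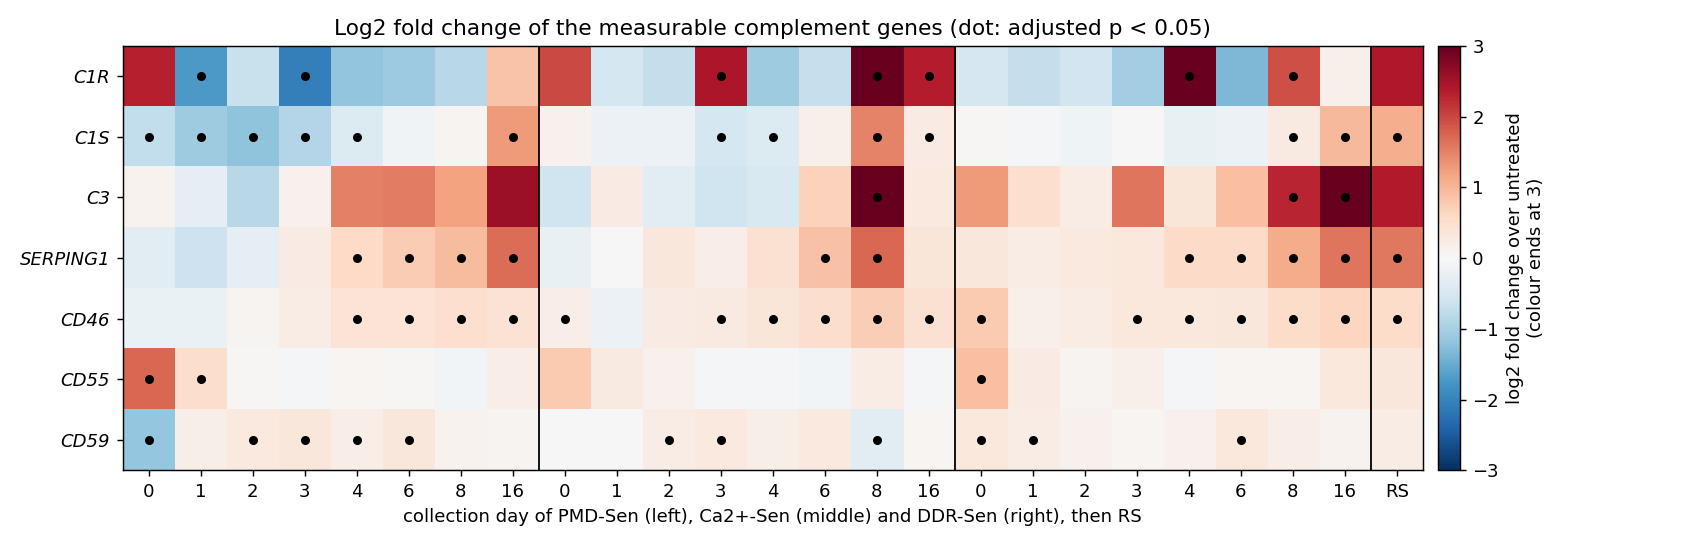
Log2 fold change over untreated cells of the 7 measurable complement genes (rows) in the 25 comparisons (columns, by collection day and then RS), red higher and blue lower, with colour ending at 3, and a dot where the adjusted p was under 0.05. CD46 carries 17 dots, C1S 13 and C3 3, and the dots of SERPING1 stand on the later days.

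The number of members called is read against the share of all tested genes called in the same comparison. In PMD-Sen, 3 of 7 members were called on day 0 (C1S, CD55 and CD59), when 38.3% of all tested genes were. On day 1 they were C1R, C1S and CD55 against 18.8%, and on day 2 C1S and CD59 against 15.1%. C1R, C1S and CD59 were called on day 3 against 10.9%, and C1S, SERPING1, CD46 and CD59 on day 4 against 14.9%. The late calls were SERPING1, CD46 and CD59 on day 6 against 12.1%, SERPING1 and CD46 on day 8 against 11.2%, and C1S, SERPING1 and CD46 on day 16 against 20.3%. That day 0 share of 3 in 7 is near its background.

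In Ca2+-Sen, CD46 alone was called on day 0, when 48.5% of all tested genes were, which is below the background. No member was called from the authors' DESeq2 p-values on day 1, when 11.9% of genes were, although 3 had an unadjusted p under 0.05. On day 2 it was CD59 against 4.12%, on day 3 C1R, C1S, CD46 and CD59 against 9.95%, on day 4 C1S and CD46 against 11.5%, and on day 6 SERPING1 and CD46 against 9.68%. Day 8 had 6 of 7 members, all but CD55, against 31.9%. On day 16 there were 3, C1R, C1S and CD46, against 11.3%.

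In DDR-Sen, CD46, CD55 and CD59 were called on day 0 against 26.7% of tested genes, and CD59 on day 1 against 18.6%. No member was called from the authors' DESeq2 p-values on day 2, when 12.1% of genes were, and 1 had an unadjusted p under 0.05. CD46 was called on day 3 against 11.0%, C1R, SERPING1 and CD46 on day 4 against 17.6%, and SERPING1, CD46 and CD59 on day 6 against 23.4%. With 1 of 7 members each, days 1 and 3 are near their background. Late in the course, 5 of 7 were called on day 8 (C1R, C1S, C3, SERPING1 and CD46) against 21.0% and 4 of 7 on day 16 (C1S, C3, SERPING1 and CD46) against 28.7%. RS had 3 of 7, C1S, SERPING1 and CD46, against 22.3%. The median log2 fold change of the 7 members was 0.86 on day 16 of PMD-Sen, 0.28 on day 16 of Ca2+-Sen, 0.64 on day 16 of DDR-Sen and 1.09 in RS, where that of all tested genes was 0.01, 0.00, -0.01 and 0.02.

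To see where the inducers differed, the difference of their log2 fold changes was tested on days 0, 1, 4 and 16. On day 0, C1S, CD46, CD55 and CD59 were the members with a called difference in at least 1 pair of inducers. Between PMD-Sen and DDR-Sen, 4 of 7 members differed, when 27.4% of all tested genes did. CD59 was lower in PMD-Sen by a log2 difference of -1.47 (SE 0.14, adjusted p = 1.44e-23), CD46 with an interval from -1.29 to -0.71 (adjusted p = 2.30e-10) and C1S by -0.77 (SE 0.16, adjusted p = 1.82e-05), and CD55 was higher by 0.83 (SE 0.21, adjusted p = 6.71e-04). Against Ca2+-Sen, C1S (-0.87, SE 0.14), CD46 (-0.42, SE 0.13) and CD59 (-1.16, SE 0.13) were lower in PMD-Sen, when 36.9% of genes differed, so that 3 of 7 members is near the background, and CD55 missed the threshold at 0.95 with an interval from 0.12 to 1.78. Between Ca2+-Sen and DDR-Sen, CD46 (-0.58, SE 0.14) and CD59 (-0.31, SE 0.12) were lower in Ca2+-Sen, against 35.5%, so that 2 of 7 members is no more than the background.

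**Figure D3:**
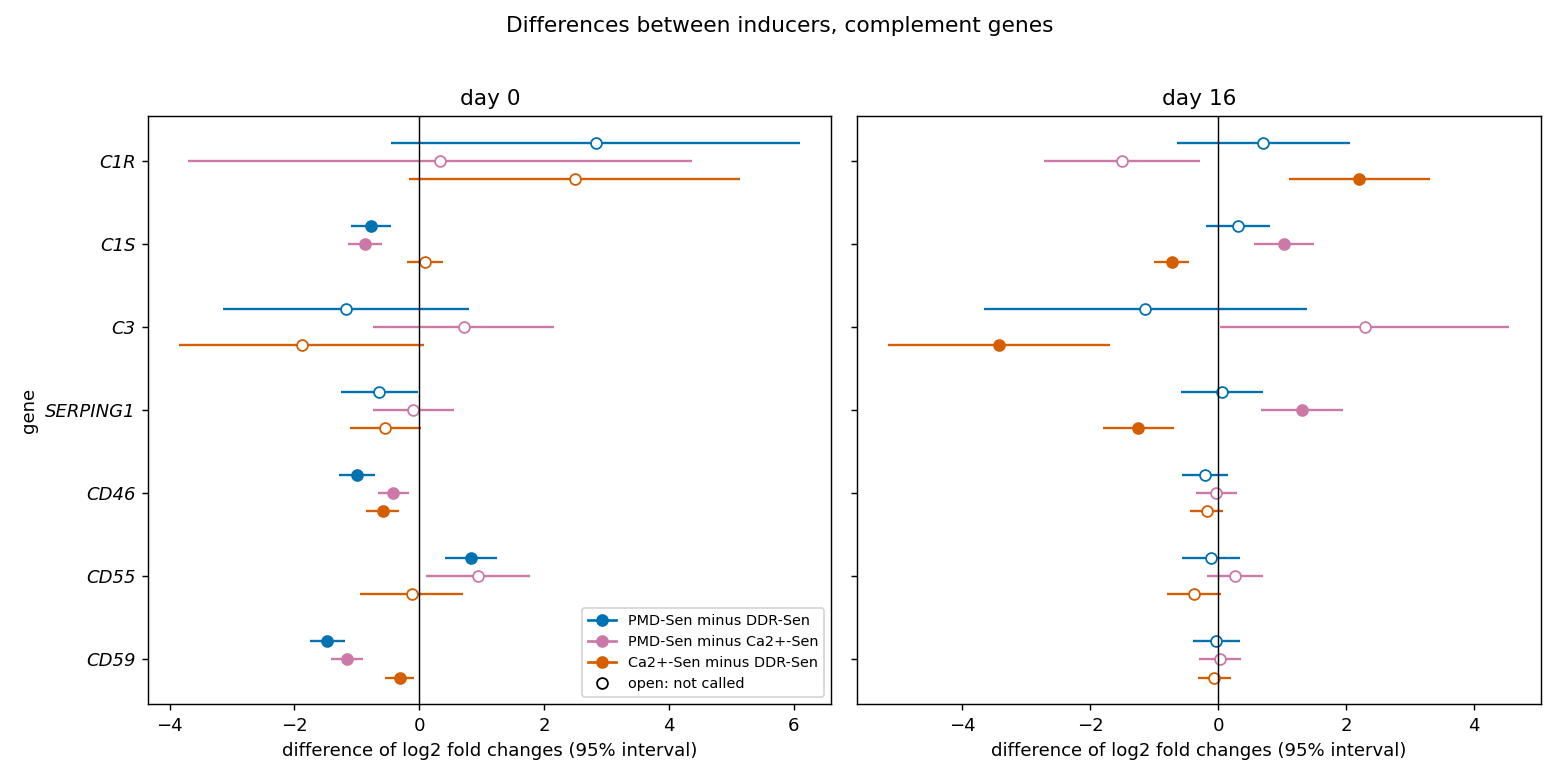
Difference of log2 fold changes between inducers (horizontal axis, with its 95% interval as a line) for each measurable complement gene on day 0 (left) and day 16 (right). Filled points were called; on day 0 the calls concern C1S, CD46, CD55 and CD59, and on day 16 they are C1R, C1S, C3 and SERPING1, each in a pair with Ca2+-Sen.

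By days 1 and 4 fewer members differed between inducers. On day 1, C1S remained lower in PMD-Sen than in DDR-Sen by -1.03 (SE 0.14) and CD46 by -0.35 (SE 0.12), when 11.7% of tested genes differed. C1S was also lower than in Ca2+-Sen by -0.87 (SE 0.12), against 4.13%. Between Ca2+-Sen and DDR-Sen on day 1 no member passed this normal test of the difference, with 2 at an unadjusted p under 0.05, against 7.32% of genes. On day 4, C1R alone differed, lower in PMD-Sen than in DDR-Sen by -4.16 (SE 0.57, against 0.724% of genes) and lower in Ca2+-Sen than in DDR-Sen by -4.04 (SE 0.59, against 1.10%), both of which rest on the level of C1R on day 4 of DDR-Sen. Between PMD-Sen and Ca2+-Sen on day 4 none differed by this test, with 0 at an unadjusted p under 0.05 and 0.142% of genes called.

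On day 16 the called differences were all between the libraries labelled Ca2+-Sen and another inducer. In Ca2+-Sen the levels of C1S, SERPING1 and C3 were higher on day 8, at 23823, 1010 and 831, than on day 16, and whether the day labels of these libraries are right was not tested. C1S was lower there than in DDR-Sen by a log2 difference of -0.72 (SE 0.14, adjusted p = 1.45e-05), SERPING1 by -1.25 (SE 0.28, adjusted p = 5.29e-04) and C3 by -3.43 (SE 0.88, adjusted p = 0.00323), while C1R was higher by 2.21 (SE 0.56), so that 4 of 7 members differed when 6.06% of genes did. PMD-Sen exceeded Ca2+-Sen in C1S by 1.03 (SE 0.24, adjusted p = 0.00218) and in SERPING1 by 1.31 (SE 0.33, adjusted p = 0.00537), against 2.60% of genes. Between PMD-Sen and DDR-Sen no member differed by the same test, with 0 at an unadjusted p under 0.05, and only 0.187% of genes did. The intervals of that difference still ran from -0.19 to 0.81 for C1S, -0.57 to 0.70 for SERPING1 and -3.66 to 1.39 for C3.

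The day 16 cells were also compared with replicative senescence. There C1S was lower in Ca2+-Sen than in RS by -0.85 (SE 0.25, adjusted p = 0.0233) and SERPING1 by -1.21 (SE 0.34, adjusted p = 0.0145), when 4.06% of genes differed. C3 (adjusted p = 0.442) and C1R (difference -0.03, SE 1.60) were not called in this comparison. No member of PMD-Sen or DDR-Sen differed from RS on day 16 by this test, with 0 at an unadjusted p under 0.05 in each, when 0.659% and 0.142% of genes did. The intervals were -0.46 to 0.83 in PMD-Sen and -0.64 to 0.39 in DDR-Sen for C1S, and -2.62 to 3.02 and -1.07 to 3.75 for C3, wide enough to hold large differences in C3.

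The change over time within an inducer was tested as day 16 minus day 0. In PMD-Sen 5 of 7 members changed, when 27.0% of genes did: C1S, SERPING1, CD46 and CD59 were higher on day 16 than on day 0 and CD55 was lower. In DDR-Sen C1S and SERPING1 were higher on day 16, against 12.1% of genes. In Ca2+-Sen no member passed this test, with 2 at an unadjusted p under 0.05, although 32.9% of genes differed between the days.

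The libraries labelled day 8 of Ca2+-Sen stood apart from days 6 and 16 of the same treatment, as 31.9% of all tested genes were called there against 9.68% and 11.3%. Some of the members did so too. In a direct test chosen after the values were seen, C1S was higher on day 8 than on day 16 by a log2 difference of 1.23 (SE 0.11, adjusted p = 2.97e-24), SERPING1 by 1.35 (SE 0.26) and C3 by 3.05 (SE 0.88), and CD59 was lower by -0.36 (SE 0.10), when 6.85% of genes differed. Against day 6, C1S (1.32, SE 0.37) and SERPING1 (0.83, SE 0.26) were higher and CD59 (-0.59, SE 0.13) was lower on day 8, against 3.26%. C3 was not called against day 6, and C1R, CD46 and CD55 were called against neither day. Without day 8, the calls of the members in Ca2+-Sen numbered 13 rather than 19 over the time course, and C3 was then called on none of its days, with 0 of 7 at an unadjusted p under 0.05 as well.

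The rest of the complement system was read from 50 further genes of the classical, lectin, alternative and terminal pathways, of soluble and membrane regulators and of receptors, all of them listed. Of these, 16 passed the filter on levels. None of the 7 alternative pathway genes did, and the C1q genes C1QA, C1QB and C1QC did not. The genes that passed were C1RL, C4A and C4B of the classical pathway, MASP1, MASP2 and COLEC10 of the lectin pathway, C5, C6 and C7 of the terminal pathway, the regulators CLU, VTN, SUSD4 and THBD, and the receptors C5AR1, ITGB2 and C1QBP. Of the 16, 6 were called on day 16 of PMD-Sen, 2 on day 16 of Ca2+-Sen, 7 on day 16 of DDR-Sen and 7 in RS, against 20.3%, 11.3%, 28.7% and 22.3% of all tested genes, so that the count in Ca2+-Sen is near its background. In each of these 4 comparisons 1 of the calls was C1QBP, in the lower direction, and the others were higher. The median log2 fold changes of the 16 were 0.55, 0.32, 0.78 and 0.87. On day 8 of Ca2+-Sen 8 were called higher and 1 lower, against 31.9% of all tested genes, with a median of 0.69.

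**Figure D4:**
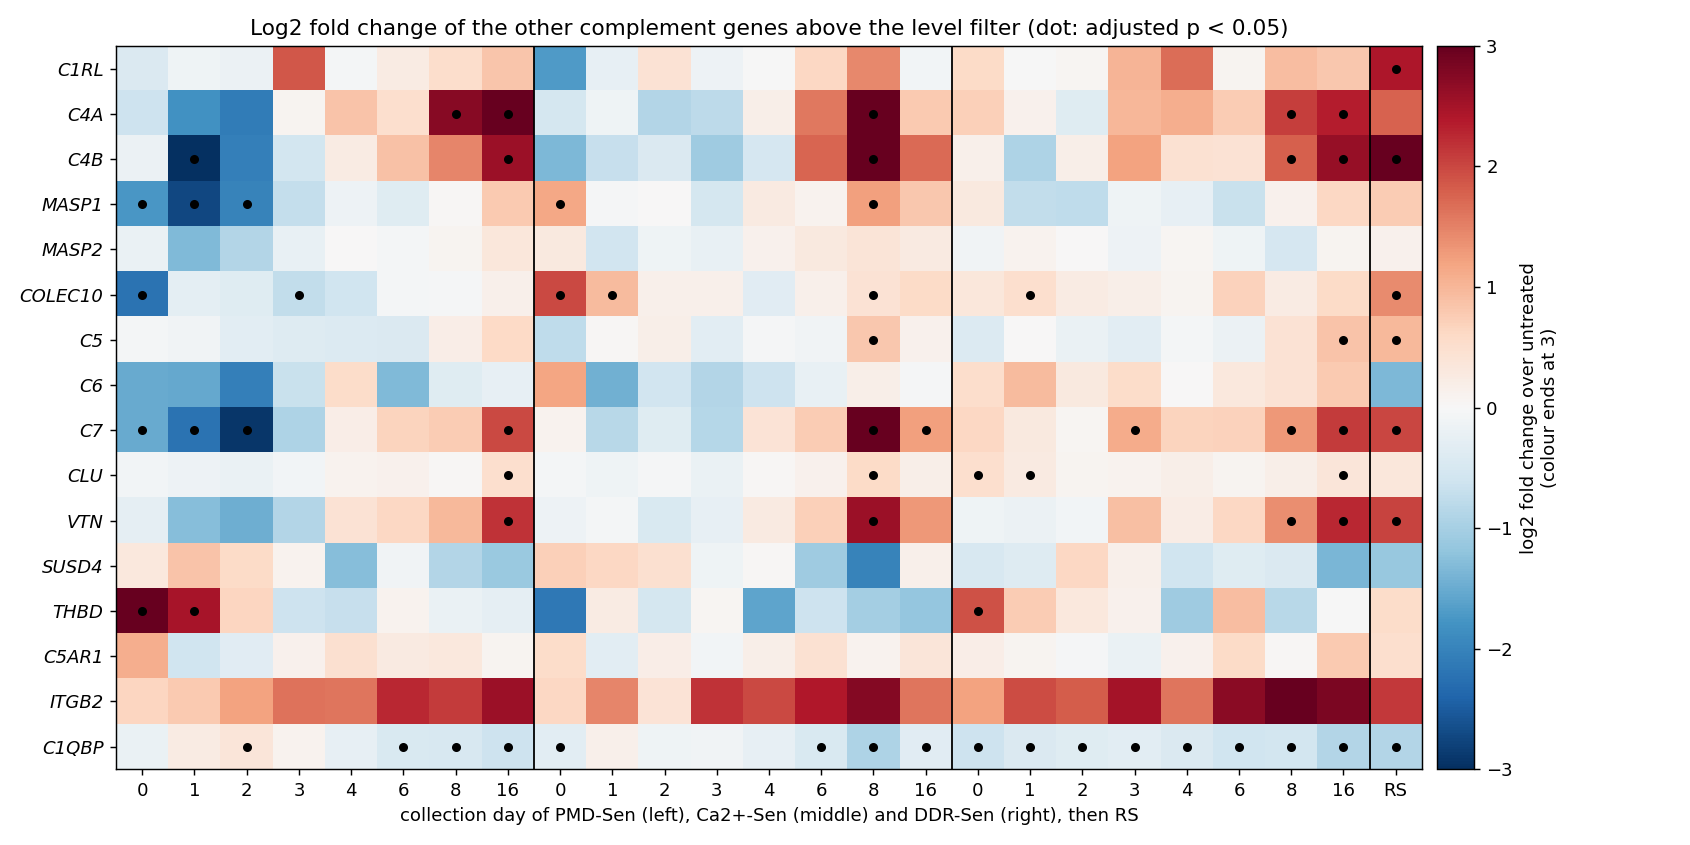
Log2 fold change over untreated cells of the 16 other complement genes above the level filter (rows) in the 25 comparisons (columns), red higher and blue lower, with colour ending at 3, and a dot where the adjusted p was under 0.05. C7 and VTN are called higher on day 16 of PMD-Sen and DDR-Sen, on day 8 of Ca2+-Sen and in RS, and C1QBP is called lower in 16 comparisons.

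Several of these genes were called higher late, as C1S and SERPING1 were. C7, the terminal component that anchors the pore in a membrane, had 67.6 normalized counts in untreated cells, fell in PMD-Sen to 8.93 on day 2 (log2 fold change -2.92, SE 0.57) and reached 269 on day 16 (1.99, SE 0.39), with 293 on day 16 of DDR-Sen, 272 in RS and 710 on day 8 of Ca2+-Sen. VTN, which encodes vitronectin, an inhibitor of pore assembly, was called in 5 comparisons, all higher, with log2 fold changes of 2.17 (SE 0.47) on day 16 of PMD-Sen, 2.26 (SE 0.48) on day 16 of DDR-Sen and 2.02 (SE 0.45) in RS. C4A and C4B, the C1S substrate in 2 near-identical copies between which reads can be split, were each called higher in 5 comparisons, on day 8 or 16 or in RS, and C4B was called lower on day 1 of PMD-Sen. C4A reached 117 and C4B 183 at most, from 10.8 and 19.9 in untreated cells. Both copies lie in the region of chromosome 6 where CFB and genes that every cell uses were listed at or near 0, so their levels carry the same doubt.

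MASP1, a protease of the lectin pathway, was lower on days 0, 1 and 2 of PMD-Sen, falling from 3607 to 548 on day 1 (log2 fold change -2.72, SE 0.43), and higher on days 0 and 8 of Ca2+-Sen. THBD, thrombomodulin, was called higher on days 0 and 1 of PMD-Sen and on day 0 of DDR-Sen, with 3.31 (SE 0.55), 2.47 (SE 0.63) and 1.91 (SE 0.64).

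C1QBP, a mitochondrial protein that can bind C1q, was lower in 16 comparisons and higher in 1. COLEC10, a collectin, was lower on days 0 and 3 of PMD-Sen and higher on days 0, 1 and 8 of Ca2+-Sen, day 1 of DDR-Sen and in RS. CLU, clusterin, was called higher in 5 comparisons with log2 fold changes between 0.28 and 0.57, and C5 was called higher in 3. C1RL was called in RS alone. MASP2, C6, SUSD4, C5AR1 and ITGB2 made up the rest, and their lowest adjusted p from the authors' DESeq2 p-values was 0.0612, for ITGB2 on day 8 of DDR-Sen.

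Over the 25 treated groups, the genes with a mean level of at least 100 whose log2 levels ran most like those of a member are given as a description, since the groups share a control and their libraries' depth. For C1S they were TEK, ROR2 and TMEM176A, with Pearson correlations of 0.95, 0.94 and 0.94 over 25 groups. For SERPING1 they were LGALS3BP, APOL1 and LRP5 (0.96, 0.95 and 0.95), and for C3 LAMA4, SULF1 and SETBP1 (0.90, 0.89 and 0.89). CD55 ran most like CKMT2-AS1, MSC and HMOX1 (0.92, 0.92 and 0.91), and CD46 most like KCNJ2, AK3 and TRIM22 (0.92, 0.90 and 0.90). CD59 was nearest to TSPYL1, FBXO3 and RHOC (0.93, 0.92 and 0.91), of which FBXO3 is its neighbour on chromosome 11, at 33740939 to 33774543, 4447 bases away. The nearest genes to C1R, ADAMTS1, PLAG1 and NUFIP2, reached only 0.72, 0.67 and 0.64.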

How the data were processed

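RNA of WI-38 cells from 26 groups was sequenced by the authors as 2 libraries each. Per the labels, Trim Galore, HISAT2, HTSeq, featureCounts and DESeq2 were used with the build GRCh38 (hg38); versions are not given in the sources used here. The deposited files hold 25 distinct tables, each comparing a group with the same untreated libraries: a mean normalized count per gene (a signal that is never negative), the log2 ratio of group to untreated and its standard error (both log2), and a p-value and adjusted p-value. These columns are the authors' own comparisons and were the only values per gene, so they were used here as deposited, and no single-library values, replicate SD or counts were analysed. The design foresaw edgeR for counts, which was not run. A row with numbers in place of a gene symbol, at most 1 per table, was left out, and a column of test statistics was not used. Other columns of per-sample values numbered 0.

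Both group levels follow from the mean and the fold change. Tables were put on the scale of the RS table by the untreated level of 8645 reference genes whose mean exceeded 200 throughout. Genes with a mean level of at least 10 were tested (15479), p-values being adjusted by Benjamini-Hochberg within a table and called under 0.05. Differences between comparisons were divided by the root of their summed squared standard errors and tested two-sided against the normal distribution, which ignores the shared untreated libraries and is therefore conservative. As nothing shows that the 2 libraries of a group came from separate cultures beyond the study's term independent samples, p-values measure the spread between these libraries. Library sizes were estimated from genes with 1 read in 1 library. Alternatives were another level filter, the deposited adjusted p-values, centring, a minimum fold, and removing the untreated libraries' share of the error. The steps were tested on simulated data. The members, lists, motifs and tests were chosen with earlier results of these data known. The named genes are the 9 members, every other listed complement gene above the filter (1 item is not reported here), and the 3 genes with the highest correlation to each member. Exonic bases and overlaps came from GENCODE 29 (GRCh38), and promoter windows from RefSeq (GRCh38.p14). Python 3.11.15, pandas 2.3.3, numpy 2.4.6 and scipy 1.17.1 were used.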

Additional observations from a re-analysis of the deposited data

Results flagged for a closer look

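A member's log2 fold change over untreated cells differed between day 0 and day 16 of the same inducer in 7 cases, by a test of the difference itself with Benjamini-Hochberg adjustment over all tested genes. Given as day 16 minus day 0, PMD-Sen had 2.02 for C1S (SE 0.25), 1.98 for SERPING1 (SE 0.36), 0.64 for CD46 (SE 0.18), -1.53 for CD55 (SE 0.23) and 1.23 for CD59 (SE 0.19). In DDR-Sen the difference was 0.94 for C1S (SE 0.16) and 1.28 for SERPING1 (SE 0.28). C1S in PMD-Sen turned from lower to higher between these days, and the CD59 difference rests on its low level on day 0. A sample far from others of its group could not be looked for, since no values of single libraries were analysed.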

How the results depend on the processing

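No paired analysis was possible because the tables hold group means and fold changes and no values of single libraries. For the same reason no replicate could be left out in turn, and neither was run. Counted over all days, the members were called 23 times in PMD-Sen, 19 in Ca2+-Sen, 20 in DDR-Sen and 3 in RS. These counts are over the 7 tested members on each of 8 days, and in 1 comparison for RS. The share of all tested genes called ran from 10.9% to 38.3% over the days of PMD-Sen. It ran from 4.12% to 48.5% in Ca2+-Sen and from 11.0% to 28.7% in DDR-Sen, and was 22.3% in RS. Asking in addition for a 2-fold change left 8 calls in PMD-Sen, 6 in Ca2+-Sen and 6 in DDR-Sen, CD46 and 10 of 11 calls of CD59 being smaller. The same limit on differences between inducers left 4 of 7 calls for PMD-Sen minus DDR-Sen, 3 of 6 for PMD-Sen minus Ca2+-Sen, 4 of 7 for Ca2+-Sen minus DDR-Sen and 1 of 2 for day 16 minus RS. The share of all tested genes that passes the 2-fold limit is not given here, so these counts have no background beside them. With the untreated libraries' share of the error removed, day 16 minus day 0 gave 11 calls rather than 7. A level of at least 100, no filter, the deposited adjusted p-values and centring on the median gene each kept the counts per inducer within 1.5 times. Without C1R, chosen after its values were seen, the counts were 21, 16, 18 and 3. Without day 8, Ca2+-Sen had 13. Centring changed 1 of 175 single calls, that of CD59 on day 4 of PMD-Sen (0.20, adjusted p = 0.0645 instead of 0.0486), and reversed none. With 2 libraries a group, wide errors limit C3 and C1R most.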
